A study of Homo sapiens with 9 samples.

Results

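The E2F transcription factors and the RB family were followed through 10 genes: E2F1, E2F2, E2F3, E2F4, E2F5, E2F7, E2F8, RB1, RBL1 and RBL2. The set was chosen on the E2F2 values, which were higher after HIF1A siRNA, and the other members were taken as named relatives of E2F2. These genes were 10 of the 47753 genes counted on the array and were covered by 13 of its 58201 probes, with a second probe each for E2F3, E2F7 and RBL1. Of the 47753, 22439 had a gene symbol, and the rest were unnamed entries each counted as a gene. Shares of all genes below include both kinds. A gene passed the test where its unadjusted limma P was under 0.05, the threshold of the study's methods. Because the choice used HIF-1α knockdown against control, values of that comparison are given as a description, and where genes past the threshold are counted in it, the share of all genes past it stands beside the count and nothing is read from it.

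RNA came from OEC-M1, an oral squamous carcinoma cell line used as a model of head and neck cancer, and all 9 arrays shared 1% O2 for 18 h. The cells had been transfected for 72 h with control siRNA (siControl), GATA3 siRNA (siGATA3) or HIF1A siRNA (siHIF1A), with 3 arrays per group. The study names 1 siRNA per target for its arrays, so effects of the target and of that siRNA were measured together, and no normoxic array was analysed here. The labels do not say that the 3 samples of a group were separate cultures, so P values measure only the spread between these samples. Arrays with the same number lay on the same slide, 1 per group, and each group always took the same position on the slide, so position and group cannot be told apart.

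Median spot intensity ran from 992.5 to 3560 between arrays before normalization, and 74.3 to 88.5% of spots were well above background. HIF1A fell by 2.32 ± 0.35 (log2, SE, 3 arrays per group) on the siHIF1A arrays, and GATA3 fell by 1.27 ± 0.34 on the siGATA3 arrays, both on all 3 slides. Of 9 epithelial markers, KRT5 was well above background on 0 of 9 arrays, KRT6A on 8 and the other markers, KRT8, KRT18, KRT14, KRT17, CDH1, EPCAM and TP63, on 9. The 7 markers of other cell types (PTPRC, CD3E, PECAM1, CDH5, COL1A1, DCN and MLANA) were also well above background on 7 to 9 arrays, so this mark alone did not separate the cell type.

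E2F proteins bind the promoters of genes for the G1 to S transition and DNA replication, most of them as dimers with a DP protein. E2F1, E2F2 and E2F3 are mainly activators, E2F4 and E2F5 mainly repress together with pocket proteins, and E2F7 and E2F8 are atypical repressors that bind DNA without a DP partner. The pocket proteins RB1, RBL1 and RBL2 hold E2F factors inactive until cyclin-dependent kinases phosphorylate them, and CDK inhibitors act on those kinases. HIF-1α, the protein made from HIF1A, is the oxygen-regulated subunit of HIF-1, which binds hypoxia response elements. Loss of control by this pathway is a known feature of squamous carcinomas.

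The promoter of E2F2 is shown because the results turn on this gene, and that of E2F1 because it encodes a related activator that is known to be an E2F target itself. Each sequence is the 250 bases upstream of the gene start, from RefSeq (GRCh38.p14), read 5′ to 3′ on the minus strand. Capitals mark matches on either strand to the E2F site spellings TTTCCCGC, TTTCGCGC, TTTGGCGC and TTTGCCGC.
E2F2, chr1:23531234-23531483: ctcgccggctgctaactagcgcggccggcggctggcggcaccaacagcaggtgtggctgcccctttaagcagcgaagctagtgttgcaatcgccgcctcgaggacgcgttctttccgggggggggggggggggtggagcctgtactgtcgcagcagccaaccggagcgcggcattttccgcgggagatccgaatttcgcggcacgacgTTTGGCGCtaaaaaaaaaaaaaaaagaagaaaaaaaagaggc
E2F1, chr20:33686386-33686635: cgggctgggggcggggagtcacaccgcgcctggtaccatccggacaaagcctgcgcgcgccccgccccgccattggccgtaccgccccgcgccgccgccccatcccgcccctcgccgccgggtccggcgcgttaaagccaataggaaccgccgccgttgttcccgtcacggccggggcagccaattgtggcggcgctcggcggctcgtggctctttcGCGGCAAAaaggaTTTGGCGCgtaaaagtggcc
The E2F2 window held 1 match, TTTGGCGC, which began at position -42 counted from the gene start. In E2F1 there were 2 matches, a TTTGCCGC on the opposite strand and a TTTGGCGC. Neither window held the hypoxia response core, searched as ACGTG and GCGTG on both strands. Over all 35116 upstream windows of this length, 2.79% held an E2F site spelling and 43.2% held a core. Windows were found for 8 of the 10 members, and the RB1 window lies inside the gene, upstream of a downstream start. RBL1 held both motifs, and E2F4 and RBL2 held a core. E2F3 held an E2F site in the window upstream of the gene start, and a core only in another window that lies inside the gene. A match describes the letters of the window and not binding.

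E2F2 (chr1:23505212-23531233 in GRCh38.p14, as for the positions that follow), an activator of S phase genes, gave the values that chose the set. Before normalization its spot measured 1155, 1706 and 834.5 on the siControl arrays 1 to 3, 694, 1878 and 757 on the siGATA3 arrays, and 5547.5, 5828 and 4302 on the siHIF1A arrays. After normalization, log2 intensity was 9.73, 10.70 and 10.80 with siControl, 9.72, 10.61 and 10.18 with siGATA3, and 11.63, 12.50 and 11.78 with siHIF1A. All 3 siHIF1A arrays therefore lay above the other 6, which overlapped each other. The mean was 11.97 ± 0.47 (SD, n = 3) in HIF-1α knockdown and 10.41 ± 0.59 in siControl, a log2 difference of 1.56 ± 0.38 (SE) or 2.95-fold. Within slides 1 to 3 the difference was 1.90, 1.81 and 0.98. With 1 array left out in turn it ran from 1.22 to 1.76, and with array brightness as a covariate it was 1.79.

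GATA3 knockdown, which the choice did not use, gave an E2F2 level of 10.17 ± 0.45 (SD, n = 3). The log2 difference from siControl was -0.24 ± 0.38 (SE), with a 95% confidence interval of -1.07 to 0.60 and did not pass the test (adjusted P = 1.00 in limma). This test shares the siControl arrays with the other comparison. The within-slide differences were -0.0063, -0.080 and -0.62. A 2-fold decrease lay inside this interval and a 2-fold increase outside it. Set directly against each other, the knockdowns differed in E2F2 by -1.80 ± 0.38 (siGATA3 less siHIF1A, log2 and SE), and the slides gave -1.90, -1.89 and -1.60. This last contrast uses the siHIF1A arrays that chose E2F2, so it is a description too.

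**Figure D1:**
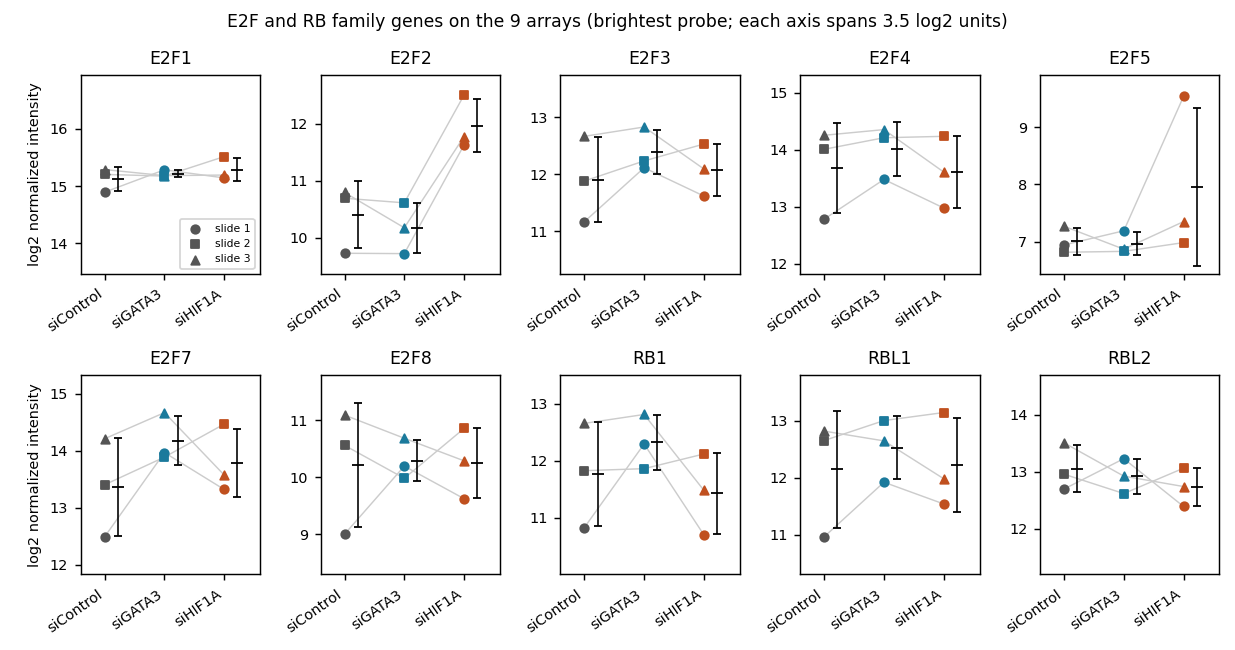
Log2 normalized intensity of the 10 E2F and RB family genes (brightest probe) on each array, by siRNA group, with grey lines joining arrays of 1 slide and black bars for mean and SD (n = 3). Each axis spans the same log2 range but levels are not comparable between genes. E2F2 is the panel in which all 3 siHIF1A arrays lie above the other 6. The E2F5 values come from a probe that was well above background on 1 of 9 arrays.

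Among the other activators, E2F1 (chr20:33675477-33686385) varied least after normalization. Its log2 intensity was 14.89, 15.20 and 15.29 with siControl, 15.28, 15.17 and 15.18 with siGATA3, and 15.14, 15.52 and 15.19 with siHIF1A. The groups overlapped. The array carries the E2F1 probe in 10 spots, whose SD within an array was 0.091 to 0.203 (log2). The difference from siControl was 0.085 ± 0.22 (SE) with siGATA3 and 0.16 ± 0.22 with siHIF1A. The latter had a 95% confidence interval of -0.34 to 0.65.

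E2F3 (chr6:20401879-20493714) measured 11.17, 11.88 and 12.67 with siControl on its brighter probe, so the control arrays already covered the values of all siHIF1A arrays. It measured 12.11, 12.23 and 12.83 with siGATA3 and 11.62, 12.53 and 12.09 with siHIF1A. GATA3 knockdown was higher than siControl on every slide, by 0.95, 0.35 and 0.16, and the mean difference of 0.49 ± 0.40 (SE) did not pass the test. The second E2F3 probe gave 0.71 ± 0.39, which did not pass either. In HIF-1α knockdown the probes gave 0.18 and 0.37, with slides 1 and 2 higher and slide 3 lower on the brighter probe.

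E2F4 (chr16:67192155-67198918), a repressor with the pocket proteins, had log2 intensities of 12.78, 14.00 and 14.25 with siControl, 13.48, 14.21 and 14.35 with siGATA3, and 12.98, 14.23 and 13.61 with siHIF1A. In each group array 1 was lowest and the groups overlapped. The difference was 0.33 ± 0.45 (SE) with siGATA3 and -0.074 ± 0.45 with siHIF1A.

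E2F5, the other repressor of this kind, was not well above background on any siControl or siGATA3 array, nor on siHIF1A arrays 2 and 3. Its spot measured 1348 on siHIF1A array 1, against 97.5 to 163 on the other 8 arrays. With the lowest signal well above background as a floor for each siControl array, the group means gave 1.64-fold more in siHIF1A than in siControl. The dim siHIF1A arrays 2 and 3 entered at their measured values, so this is not a lower bound, and it rests on siHIF1A array 1. Without that array no siHIF1A array was well above background. No fold is given for GATA3 knockdown, since neither group was well above background, and no fitted E2F5 difference is given. The probe still enters the counts over the members and the family median.

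E2F7 (chr12:77021251-77065569), an atypical repressor, measured 12.49, 13.40 and 14.21 with siControl, 13.96, 13.88 and 14.66 with siGATA3, and 13.32, 14.46 and 13.57 with siHIF1A. It had the largest difference of the 10 genes in GATA3 knockdown, 0.81 ± 0.46 (SE), with slides at 1.47, 0.48 and 0.46. The groups overlapped and the difference did not pass the test. It passed without siControl array 3 (1.23) and with array brightness as a covariate (0.78). It was smaller and did not pass without siControl array 1 (0.37) or without siGATA3 array 3 (0.56). The second E2F7 probe gave 0.45 ± 0.55. In HIF-1α knockdown the probes gave 0.42 and 0.37, with slide 3 lower than siControl by 0.64 on the brighter probe.

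E2F8 (chr11:19224063-19241655), the other atypical member, spread widely in the controls, at 9.0, 10.56 and 11.09. It measured 10.19, 9.98 and 10.68 with siGATA3 and 9.62, 10.85 and 10.29 with siHIF1A, all inside the range of the controls. The differences were 0.070 ± 0.52 (SE) with siGATA3 and 0.039 ± 0.52 with siHIF1A. Their intervals reached beyond 1 log2 unit on both sides, so a 2-fold change of E2F8 was not detectable with 3 arrays per group.

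RB1 (chr13:48303751-48481890), which encodes the retinoblastoma protein, is printed in 10 spots like E2F1 but was far more variable after normalization. Before normalization E2F1 had the wider relative range, with spot medians of 21156.25 to 54839.75, against 2540.5 to 5248.75 for RB1. The normalized log2 intensity of RB1 was 10.83, 11.83 and 12.66 with siControl, 12.29, 11.86 and 12.81 with siGATA3, and 10.70, 12.12 and 11.48 with siHIF1A. The SD of the 10 spots within an array was 0.167 to 0.299, against an SD of 0.91 between the siControl arrays. The spots of an array therefore agreed within a smaller range than the arrays of a group. GATA3 knockdown was higher than siControl by 0.55 ± 0.50 (SE) without passing the test, where slide 1 gave 1.46 and the other slides 0.035 and 0.16. HIF-1α knockdown gave -0.34 ± 0.50. Set against HIF-1α knockdown, GATA3 knockdown was higher by 0.89 ± 0.50 without passing the test (adjusted P = 0.452 in limma). With the slide as a block the same difference passed at an unadjusted P of 0.05, as it did without siHIF1A array 2 (1.23). It ran from 0.52 to 1.23 with 1 array left out, and from 0.17 to 0.90 over the other alternatives. Slides 1 and 3 gave 1.59 and 1.33 in that contrast and slide 2 gave -0.26.

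**Figure D2:**
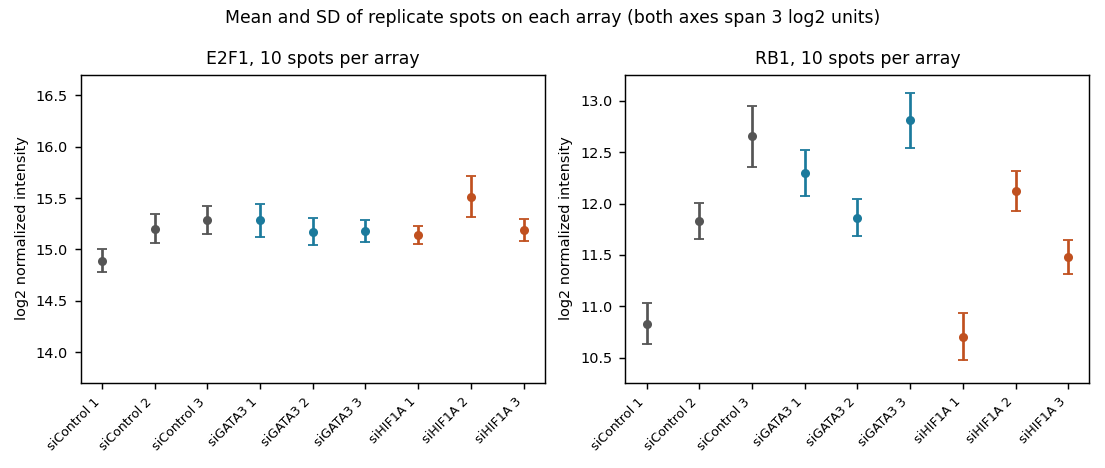
Mean and SD of the 10 spots of the E2F1 probe (left) and of the RB1 probe (right) on each array, as log2 normalized intensity. E2F1 lies between 14.89 and 15.52 on all arrays, while RB1 runs from 10.70 to 12.81, with spot SDs of at most 0.299.

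The RB1 relatives RBL1 and RBL2 overlapped between all groups. RBL1 (chr20:36996349-37095997) ran from 10.97 to 12.82 in siControl, from 11.92 to 13.00 in siGATA3 and from 11.54 to 13.14 in siHIF1A. Its differences from siControl were 0.38 ± 0.56 (SE) and 0.077 ± 0.56, and its second probe gave 0.57 ± 0.50 and 0.19 ± 0.50, in GATA3 and HIF-1α knockdown respectively. RBL2 (chr16:53434471-53491648) ran from 12.70 to 13.51, from 12.62 to 13.23 and from 12.39 to 13.06 in the same order of groups. Its differences were -0.13 ± 0.30 (SE) and -0.32 ± 0.30.

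Counted over the family, 1 of 10 members, E2F2, had an unadjusted P under 0.05 in HIF-1α knockdown against siControl, where 5.23% of all 47368 genes tested did. The gene that chose the set is that member, so nothing is read from this count. Similarly, E2F2 was the 1 member whose siHIF1A arrays did not overlap the siControl arrays, where 5.19% of genes had all siHIF1A arrays above. In GATA3 knockdown, 0 of 10 members passed at an unadjusted P of 0.05 in limma, against 2.97% of all genes. Without siControl array 3, E2F3 (0.87) and E2F7 passed, where 12.7% of all genes did, and with array brightness as a covariate E2F7 and RB1 (0.52) passed, where 10.1% of all genes did. In GATA3 against HIF-1α knockdown 1 of 10 passed, again E2F2, against 12.0% of all genes. After Benjamini-Hochberg adjustment over all genes, 0 members passed in any comparison, where 0, 0 and 0.00422% of all genes did in the order given.

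**Figure D3:**
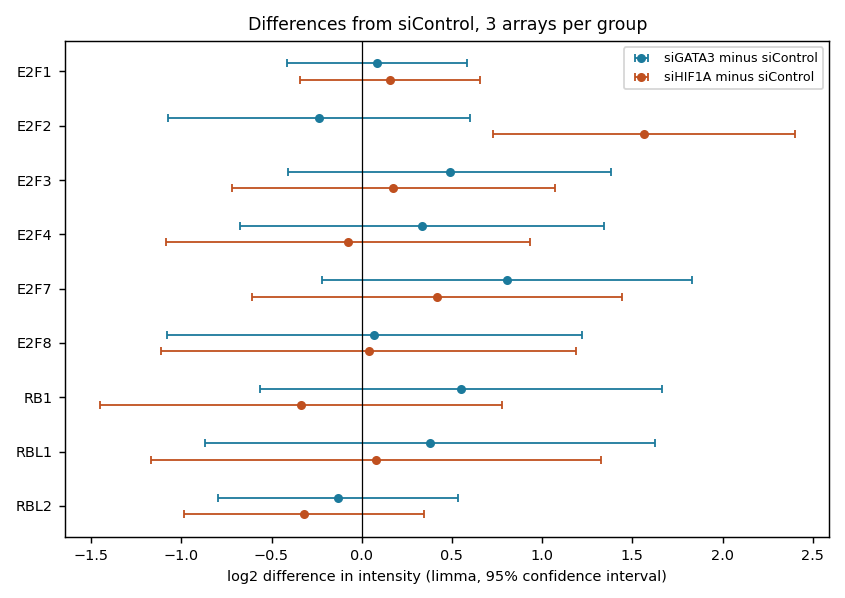
Log2 difference from siControl of 9 E2F and RB family genes with its 95% confidence interval from limma, for GATA3 knockdown (blue) and HIF-1α knockdown (orange), 3 arrays per group. The interval of E2F2 in HIF-1α knockdown, 0.73 to 2.40, lies above 0, while the other intervals drawn hold 0. E2F5, which was well above background on 1 of 9 arrays, is left out.

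The direction of the member differences varied between slides. On slides 1 and 2, 8 and 10 of the 10 members were higher with siHIF1A than with siControl, and on slide 3 only 2 were, E2F2 and the E2F5 probe, which was not well above background there. With siGATA3, 9, 6 and 4 of the 10 were higher on slides 1 to 3. For 12 of the 13 family probes (92.3%) siControl array 1 was the lowest and array 3 the highest control after normalization. This order was shared by 33.3% of all 53608 probes measured on these arrays. Before normalization only the second E2F7 probe had it among the family probes, at 1895, 3039 and 3715. E2F1 ran the other way, at 47237.5, 39375.75 and 21156.25, and RB1 measured 2540.5, 3876.25 and 3386. Spot brightness had the opposite order, with medians of 2807.5, 2126.5 and 992.5 on siControl arrays 1 to 3. Its part in these differences was not tested beyond the covariate fit. That fit gave a family median, E2F5 included, of 0.61 in HIF-1α knockdown in place of 0.12. Without the covariate, the median was -0.35 when siControl array 1 was left out and 0.44 when siControl array 3 was.

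The genes that act with or downstream of the family were described by 5 lists of 52 genes in all. In HIF-1α knockdown, 10 of the 52 passed in the higher direction, where 1.95% of all genes did, and 1 in the lower, where 3.28% did, 21.2% of the list in all, and 40 of the 52 were higher than siControl. Their median log2 difference was 0.32, against -0.010 over all genes. The count fell to 3 without siHIF1A array 2 and to 6 without siControl array 1, and 0 passed after adjustment. These counts come from the comparison that chose the set and are a description.

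The 26 E2F target genes encode factors of DNA replication, nucleotide synthesis and cell cycle entry, and all were well above background on 9 arrays. In HIF-1α knockdown 23 of them were higher and 5 passed in that direction, where 1.95% of all genes did, with a list median of 0.36. The count of 5 was 1 without siHIF1A array 2, 3 without siControl array 1, siControl array 2 or siHIF1A array 1, and 14 with array brightness as a covariate. The 5 were CDC25A, a phosphatase that activates cyclin-dependent kinases, MCM3 of the replicative helicase, RRM2 of ribonucleotide reductase, TK1, a thymidine kinase, and HELLS, a chromatin remodeller. TK1 measured 16.64, 16.57 and 16.41 with siControl, 16.13, 16.24 and 16.01 with siGATA3, and 17.55, 16.96 and 17.29 with siHIF1A, and the groups did not overlap. Its difference in HIF-1α knockdown was 0.73 ± 0.23 (SE), and CDC25A (1.39 ± 0.59) and MCM3 (0.92 ± 0.34) were also higher on every slide. RRM2 (1.05 ± 0.35) and HELLS (0.83 ± 0.35) were lower than siControl on slide 3, by 0.13 and 0.15. Over the list, the median difference was 0.66 and 0.57 on slides 1 and 2 and -0.24 on slide 3. With 1 array left out the median ran from 0.13 without siControl array 1, when 17 of 26 were higher, to 0.61 without siControl array 3, and it was 0.21 without siHIF1A array 2. Of the 7 markers of other cell types, 5 were also higher in HIF-1α knockdown, with a median of 0.35 and 0 passing. COL1A1, among these 5, was not measured on siHIF1A arrays 2 and 3, and on slide 1 its difference was -0.19. The summed intensity of the 6 of them measured on every array was 109214 to 112646 with siHIF1A, 43846 to 112645 with siControl and 63192 to 104266 with siGATA3. Most of that sum came from PTPRC, at a log2 intensity of 16.58 to 16.64 with siHIF1A, against at most 12.05 for the others summed. The part of these markers in the result was not tested.

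Among the DP partners, which pair with E2F factors, TFDP1 was higher in HIF-1α knockdown by 0.78 ± 0.30 (SE) and its close relative TFDP3 by 0.65 ± 0.27, and TFDP2 differed by -0.23. Of the 9 G1 cyclins and kinases, CCNE2, which activates CDK2 at S phase entry, differed by 1.38 ± 0.39 and CCND3, a D-type cyclin, by 1.04 ± 0.37. CCNE2 measured 10.39, 11.40 and 11.36 with siControl and 12.02, 13.22 and 12.07 with siHIF1A, without overlap. CCND3 overlapped between these groups, with siControl array 3 at 12.18 and siHIF1A array 1 at 12.08. Among the 7 CDK inhibitors, CDKN1B, which restrains cyclin E with CDK2, was lower by 0.95 ± 0.33. It measured 14.65, 14.33 and 15.36 with siControl and 13.88, 13.81 and 13.80 with siHIF1A, again without overlap. The brightest inhibitors, CDKN2B and CDKN2A, differed by 0.42 and -0.077. Of the 7 MuvB subunits and partners, MYBL2, which joins MuvB at cell cycle genes, was higher by 0.67 ± 0.24, and LIN54, the DNA-binding subunit, differed by 0.75 ± 0.47 without passing.

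**Figure D4:**
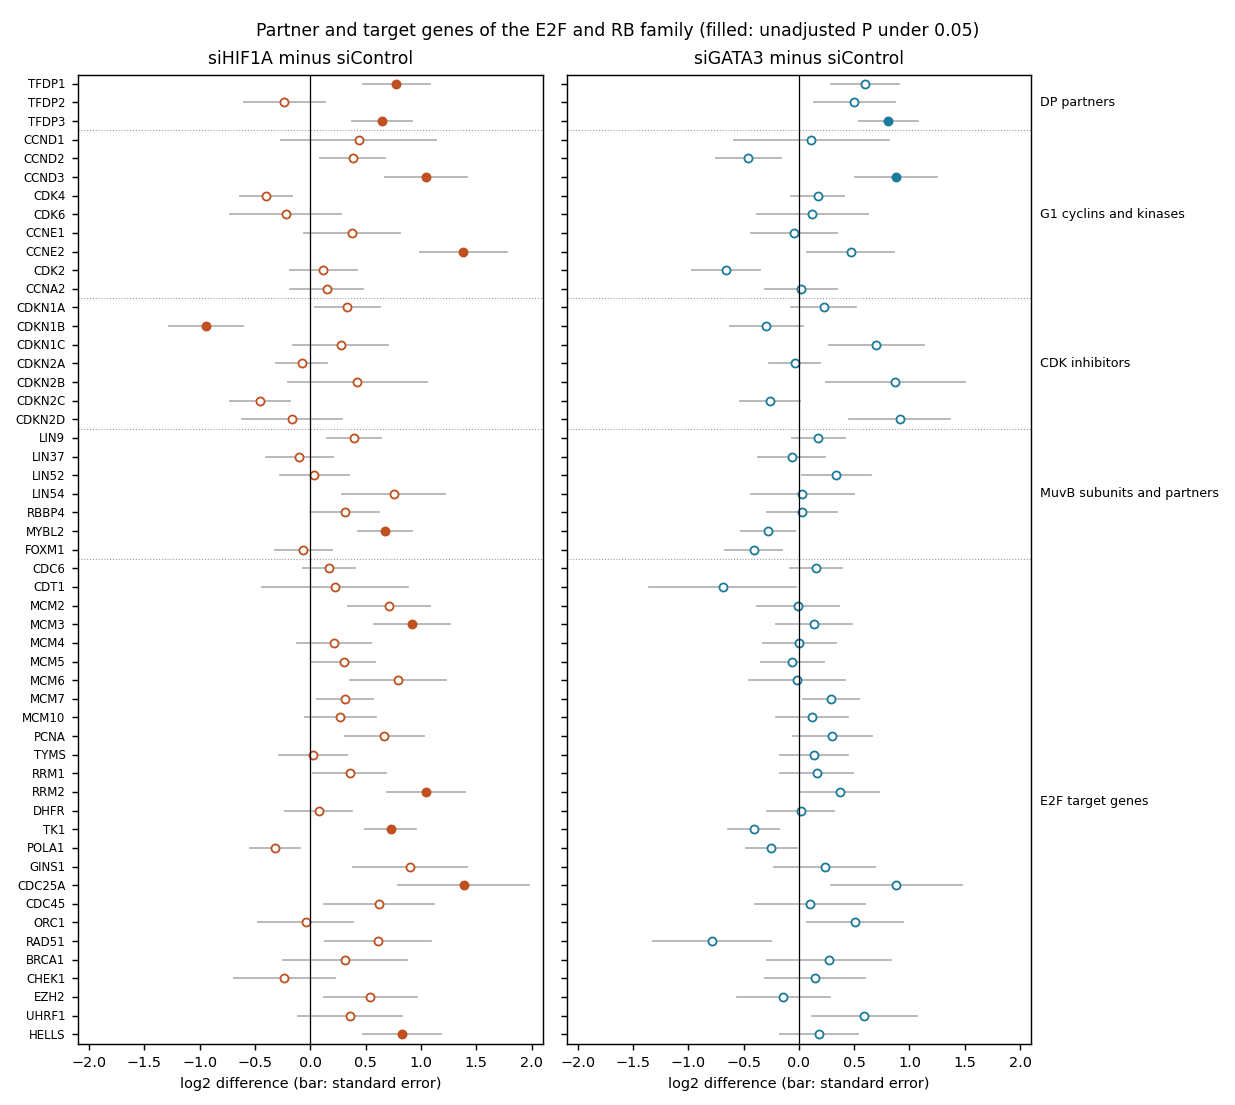
Log2 difference from siControl of 52 partner and target genes of the family, by list, in HIF-1α knockdown (left) and GATA3 knockdown (right), with the standard error as a bar. Filled points passed an unadjusted P of 0.05: 11 genes on the left, of which CDKN1B is the lower one, and 2 on the right, TFDP3 and CCND3.

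In GATA3 knockdown 2 of the 52 passed, both higher, where 1.59% of all genes passed in that direction and 1.38% in the lower. TFDP3 rose by 0.81 ± 0.27 (SE) and was higher on every slide (adjusted P = 1.00 in limma), with siGATA3 arrays at 12.67, 12.72 and 12.97 against 11.54, 12.24 and 12.14. CCND3 rose by 0.87 ± 0.37 (adjusted P = 1.00), with slides at 1.62, 0.78 and 0.23. They were 3.85% of the list, near the 2.97% of all genes that passed. Without siControl array 1 neither passed and 1 other gene did, in the lower direction. The count was also 1 without siGATA3 array 1 or without siHIF1A array 3, 5 without siControl array 3, and 5 with the slide as a block. Of the 26 E2F targets, 18 were higher and 0 passed, with a median of 0.14 and slide medians of 0.49, -0.0017 and -0.15. Without siControl array 1 this median turned to -0.13, with 8 of 26 higher, without siControl array 3 it was 0.38, and without siGATA3 array 3 it was 0.060. The values for genes named above were 0.88 ± 0.59 for CDC25A, 0.37 ± 0.35 for RRM2 and -0.41 ± 0.23 for TK1, with SE.

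Set directly against each other, the knockdowns differed in 9 of the 52 genes at an unadjusted P of 0.05, 2 higher (6.93% of all genes) and 7 lower (5.05%) with siGATA3. Of the E2F targets 21 of 26 were lower with siGATA3 than with siHIF1A, with a median of -0.36, and 3 passed, 11.5% of the list against 12.0% of all genes. The median was -0.086 without siHIF1A array 2 and -0.18 without siGATA3 array 1, with 9 and 10 of the 26 higher. All 7 markers of other cell types were lower too, with a median of -0.52 and 1 passing, though COL1A1 was not measured on siHIF1A arrays 2 and 3. All 9 epithelial markers were also lower, with a median of -0.56 and 3 passing, though KRT5 was well above background on 0 of 9 arrays. The part of both marker groups in the result was not tested. TK1 differed by -1.14 ± 0.23 (log2, SE; adjusted P = 0.183 in limma) with slides at -1.41, -0.72 and -1.28. MYBL2 gave -0.95 ± 0.24 (adjusted P = 0.286) and CCNE2 -0.91 ± 0.39 (adjusted P = 0.411), both lower on every slide. TK1, MYBL2 and CCNE2 were named because they passed in HIF-1α knockdown against siControl. The direct contrast reuses those siHIF1A arrays, so its values are a description. The count of 9 was 4 without siGATA3 array 3 and 4 without siHIF1A array 2. On slide 3 the median E2F target difference was 0.14, against -0.34 and -0.72 on slides 1 and 2.

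By Pearson correlation with E2F2 over the 9 arrays, among 15912 named genes well above background on all arrays, LRRC20 (r = 0.976), ASF1B, a histone chaperone (r = 0.972), and DYNC2I2, a dynein subunit (r = 0.969), came closest. The 9 arrays share 3 groups and 3 slides, so these values describe likeness and carry no P. LRRC20 measured 10.38, 10.83 and 11.24 with siControl, 10.28, 10.61 and 10.76 with siGATA3, and 11.80, 12.61 and 12.06 with siHIF1A, with the siHIF1A arrays on top as for E2F2. For the family members r ran from -0.16 for RBL2 to 0.59 for E2F1. Since the 3 genes were picked by the highest r, their likeness to E2F2 and the lower r of the members are no result.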

How the data were processed

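Per the labels and file headers, the authors scanned 9 single-colour (Alexa555) arrays and deposited Agilent Feature Extraction 10.5.1.1 output: median spot and local background intensity, with processed intensity. A second file deposited by the authors holds log2 values, which are within 0.001 of log2 processed intensity less a constant per array for 100% of 57901 probes, so it is not quantile normalized.

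The members and gene lists were chosen with earlier results of these data known. Following the study's methods (background correction, quantile normalization, non-uniform spots removed, limma, unadjusted P of 0.05), normexp (offset 50) was applied to the median intensity, since the files hold no mean; non-uniform and control spots were left out, arrays quantile normalized, and spots averaged per probe. The offset draws small differences of dim probes toward 0. The brightest probe stood for a gene; accessions were named from RefSeq (31104 of 58201 probes). One limma 3.58.1 model (R 4.3.3, lmFit and eBayes) held all 3 groups, two-sided, with Benjamini-Hochberg adjustment over all genes tested; it was tested on simulated data. Named were all members, the targeted genes, list genes passing in either knockdown against siControl (with the list's 2 brightest where fewer than 2 passed), and the 3 genes most like E2F2. The precision is limited by 3 arrays per group.

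Slide and replicate number coincide. Deviations of same-numbered arrays correlated at 0.604, 0.123 and 0.0627 for siHIF1A with siControl, 0.210, 0.582 and 0.719 for siGATA3 with siControl, and 0.329, -0.195 and 0.101 between the knockdowns. Alternatives were other background corrections, scalings, filters, probe rules, fits, the slide as a block, array brightness as a covariate, and each array left out.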

Additional observations from a re-analysis of the deposited data

How the results depend on the processing

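Over 9 fits that each left out 1 array and 11 other alternatives, E2F2 in HIF-1α knockdown against siControl ran from 1.22 to 1.82 (log2 difference), given as a description since it chose the set. E2F2 in GATA3 knockdown ran from -0.57 to -0.011 and passed an unadjusted P of 0.05 in 0. The targeted genes HIF1A (-2.57 to -2.05) and GATA3 (-1.54 to -1.08) passed in each in their own knockdown. The count of members passing was 1, 0 and 1 in siHIF1A against siControl, siGATA3 against siControl and siGATA3 against siHIF1A. With array brightness as a covariate it was 3, 2 and 1, and with adjusted P it was 0 in each. With the slide (the replicate number) as a block it was 1, 0 and 2, RB1 being added in the last, and the block changed no other call of a member. With 1 array left out, the ranges were 1 to 2, 0 to 2 and 1 to 3, the dim E2F5 probe included. Of the 52 partner and target genes, 11, 2 and 9 passed, and 24, 8 and 16 with brightness as a covariate, and 0 in each with adjusted P. The replicate block gave 14, 5 and 13. The authors' log2 table gave 4 in each comparison with siGATA3, and the separate fit of 6 arrays gave 1 in siGATA3 against siControl. With 1 array left out, they ranged from 3 to 13, 1 to 5 and 4 to 13. Genes passing over the whole array were 2478, 1418 and 5675, and 3983, 2381 and 8876 with the block. In siGATA3 against siControl they were 4834 with brightness, 2889 in the authors' table, 928 in a separate fit and 6006 without siControl array 3, and the separate fit gave 8630 between the knockdowns.

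Several small differences changed sign. With brightness as a covariate, HIF-1α knockdown against siControl became 0.36 for E2F4, 0.35 for RB1 and 0.0047 for RBL2, and GATA3 against HIF-1α knockdown became -0.22 for E2F3, -0.042 for E2F4, -0.23 for E2F7, -0.66 for E2F8, -0.18 for RBL1 and -0.15 for RBL2. In that fit E2F3 (0.68) and E2F7 (1.01) passed in HIF-1α knockdown. The authors' table turned HIF1A (0.12) in GATA3 knockdown and E2F8 (-0.070) between the knockdowns, and scaling to the 75th percentile turned E2F1 (0.055) between the knockdowns. The cause was not tested. Leaving out 1 array turned the sign of further members. In HIF-1α knockdown E2F3 ran from -0.19 to 0.56, E2F4 from -0.52 to 0.24, E2F7 from -0.020 to 0.84, E2F8 from -0.57 to 0.48, RB1 from -0.81 to 0.11 and RBL1 from -0.51 to 0.42. In GATA3 knockdown E2F1 ran from -0.032 to 0.17, E2F4 from -0.12 to 0.62, E2F8 from -0.54 to 0.51, RBL1 from -0.21 to 0.71, RBL2 from -0.31 to 0.096 and HIF1A from -0.29 to 0.28. Between the knockdowns E2F1 ran from -0.14 to 0.046, E2F8 from -0.28 to 0.33 and RBL1 from -0.040 to 0.76. With 3 arrays per group, the standard errors of the members (0.22 to 0.56) limit what could be detected, and E2F5 was too dim for a fitted difference.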
